A study of Mus musculus with 2 samples.

Results

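In the ventral library, 791 of 10649 cells (7.43%, 95% Clopper-Pearson interval 6.94 to 7.94) were ventral Gpx3 Adamtsl2 fibroblast-like cells. They were chosen by their own counts of unique molecular identifiers (UMIs), each of which stands for 1 captured RNA molecule. A member had at least 8000 UMIs with at most 20% of them mitochondrial, and at least 3 UMIs of Gpx3, 1 of Adamtsl2 and 1 of Slc38a5. It also had fewer than 3 UMIs of the smooth muscle myosin gene Myh11 and fewer than 20 UMIs of Igfbp2 per 10000. These 5 genes define the members, so their levels are a description and support nothing.

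The study took cells from the base of the heart of 3-day-old C57Bl6 mice of both sexes. The ventral domain held the start of the aorta, the pulmonary artery and the outflow tract base, and the dorsal domain held the pulmonary veins, the cardiac ganglia and the tissue of the sinoatrial node. Cells of 15 hearts were pooled by domain, and both pools were grown as adherent cultures for 5 days, released with trypsin and sequenced as 1 library each with 10x Genomics 3' v3 chemistry. Animals cannot be told apart within a pool, and domain, culture and library are the same split, so they cannot be told apart either. Cells are not replicates, and no test was made. Intervals are 95% and cover counting error only.

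Fibroblasts make and renew the connective matrix of the heart. Those of the myocardium arise largely from the epicardium, under the basic helix-loop-helix factor Tcf21, while cells at the outflow base also build arterial wall and valve tissue. Gpx3 encodes a secreted selenium-containing glutathione peroxidase, which removes hydroperoxides outside the cell. Adamtsl2 encodes a secreted ADAMTS-like glycoprotein without protease activity that binds fibrillin microfibrils and latent TGF-beta binding proteins, and its loss causes geleophysic dysplasia. Slc38a5 encodes a sodium-coupled transporter of glutamine, asparagine, histidine and serine.

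Sequence from the 250 bases before the RefSeq start of the 3 choosing genes and of Tcf21 is shown. The 3 genes name the cells, and Tcf21 is a fibroblast factor among the genes with the highest ratios. The sequences are from RefSeq on GRCm38.p6, read 5' to 3' on the gene's strand. All 4 genes matched an entry, and 250 bases before each start were searched. Only the longest stretch without an exon of GENCODE M21 is printed. It is 168 bases for Gpx3 (chr11:54902604-54902771, plus strand), 250 for Adamtsl2 (chr2:27079129-27079378, plus strand), 120 for Slc38a5 (chrX:8271261-8271380, plus strand) and 219 for Tcf21 (chr10:22820175-22820393, minus strand). The Gpx3 window ends at base 54902853, so its printed stretch does not reach the RefSeq start. That of Slc38a5 lies within the GENCODE M21 span of the gene, which is given below. Capitals mark CAGCTG, an E-box letter string.
Gpx3: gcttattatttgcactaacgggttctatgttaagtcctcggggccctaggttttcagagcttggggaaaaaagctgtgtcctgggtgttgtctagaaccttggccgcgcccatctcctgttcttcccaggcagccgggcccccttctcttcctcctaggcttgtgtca
Adamtsl2: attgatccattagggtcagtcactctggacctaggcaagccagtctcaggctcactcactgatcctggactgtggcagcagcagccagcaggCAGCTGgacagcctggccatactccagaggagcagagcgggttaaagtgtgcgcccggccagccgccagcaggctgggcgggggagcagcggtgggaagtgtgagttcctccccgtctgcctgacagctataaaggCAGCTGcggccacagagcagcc
Slc38a5: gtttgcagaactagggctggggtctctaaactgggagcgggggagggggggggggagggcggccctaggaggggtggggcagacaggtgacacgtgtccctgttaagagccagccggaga
Tcf21: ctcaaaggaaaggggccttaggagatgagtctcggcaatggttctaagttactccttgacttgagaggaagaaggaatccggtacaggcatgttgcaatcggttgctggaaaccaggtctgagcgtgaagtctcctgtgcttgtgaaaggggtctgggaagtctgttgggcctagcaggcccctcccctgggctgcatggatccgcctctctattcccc
Both strands were searched for 5 letter strings that do not overlap each other in these windows. Among 32851 RefSeq windows of the same length, 13.0% held CAGCTG, 14.4% held CATCTG, 6.75% held TGANTCA, 6.55% held GATAAG and 12.6% held CATTCC. Adamtsl2 held the first of these 2 times, beginning 158 and 22 bases before its start, and the other windows held none of the 5. A match is a description of letters and not a site.

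The ventral matrix held 264822916 UMIs and the dorsal 246920028, and the dorsal library gave 8926 cells under the same filter. Among the cells of both libraries, 22 barcodes occurred in each, and 1 of them was a member. Members had a median of 22740 UMIs, 4436 genes and 3.89% mitochondrial UMIs. They were set against 7139 other ventral mesenchymal cells, with medians of 21267 UMIs, 4263 genes and 4.06%. These had at least 10 Col1a1 UMIs, met the same Myh11 and Igfbp2 limits, and had fewer than 3 UMIs in sum of 8 genes of other lineages, among them Ptprc, Cdh5, Msln and Myh6. Levels are CPM, a gene's UMIs summed over a set of cells and scaled to the usual counts-per-million total.

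The name fibroblast-like was checked against 10 fibroblast markers. All 10 were found in members, at a summed level of 13689 CPM against 12907 CPM in the other mesenchymal cells. Of these, 9 reached 50 CPM in either set, with a median log2 ratio of 0.03. Past 2-fold, 1 was higher and 0 lower, beside 0.795% and 1.08% of all genes at that level. Tcf21 was higher in members (1.29) and Lum lower (-0.66). The list as a whole was thus level between the 2 sets. Every member had a Col1a1, a Col1a2, a Col3a1 and an Fn1 UMI, and 560 of 791 had a Pdgfra UMI. The median was 69 Col1a1 UMIs, and 4 members had fewer than 10. The fibroblast markers summed to between 77 and 1385 UMIs in a member, with a median of 305. The 10 mural markers summed to 5576 CPM against 7939 CPM. Of these, 4 reached 50 CPM in either set, with 0 past 2-fold higher, 1 lower and a median log2 ratio of -0.46. The actin gene Acta2 had 3379 CPM against 5116 CPM and Tagln 1975 CPM against 2482 CPM. The pericyte genes Kcnj8 (3 UMIs), Abcc9 (6 UMIs) and Rgs5 (49 UMIs) had few UMIs over all 791 cells. Pdgfrb, Cspg4 and Notch3 were also on the list, and those 3 low genes do not stand for them.

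Members still carried some RNA of other cell types. Summed macrophage markers reached 176 CPM against 108 CPM, with a median of 1 UMI and a highest member of 1472 UMIs. Mesothelial markers reached 112 CPM against 17.2 CPM, with a median of 0 UMIs and a highest member of 440. The comparison cells had been limited in Msln and Upk3b and the members had not. Endothelial markers were level, at 108 CPM and 106 CPM. The comparison cells alone had also been limited in the endothelial genes Cdh5 and Pecam1 and in the macrophage marker Ptprc. In 32 members the 8 genes of other lineages reached 3 UMIs, and Msln by itself did in 22. Scrublet, which scores barcodes likely to hold more than 1 cell, marked 75 members (9.48%) and 5.84% of the other mesenchymal cells. Cells with both Xist and Y-linked UMIs, which mixed-sex doublets and free RNA can give, were 87 of 791 members and 7.83% of the others. The part of doublets in the ratios was not tested beyond the values given with them below.

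The 3 choosing genes differed in how firmly they were seen. Gpx3 ranged from 3 to 368 UMIs in a member, with a median of 50 and with 23 and 97 at the quartiles. Adamtsl2 ranged from 1 to 37 UMIs with a median of 5, and 74 members had exactly 1. Slc38a5 ranged from 1 to 36 UMIs with a median of 2, and 305 members (38.6%) had exactly 1. The minimum of 1 Slc38a5 UMI was therefore the step on which most cells stood or fell.

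Gpx3 UMIs were also found in cells of other lineages. After every cell was thinned to 8000 UMIs, 98.6% of members had a Gpx3 UMI, as did 69.1% of 94 leukocytes (at least 2 Ptprc and 2 Csf1r UMIs) and 22.4% of 156 cells with glial marker UMIs. Before thinning the median leukocyte had 5 Gpx3 UMIs at a median depth of 28660.5, and the median glial cell 0 at a depth of 17433. Adamtsl2 was seen in 79.5% of members and 6.38% of leukocytes on the thinned scale. Slc38a5 was seen in 59.8% of members and in 0 of 94 leukocytes, which allows up to 3.85% (Clopper-Pearson). Before thinning, 29.8% of the leukocytes had an Adamtsl2 UMI and 2.13% an Slc38a5 UMI. Scrublet marked 11.7% of the leukocytes, and whether these UMIs came from free RNA, doublets or the cells themselves was not tested.

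A larger group of cells carried Gpx3 and Adamtsl2 without Slc38a5. Under the limits, 3425 ventral cells had both, and 23.1% of them had an Slc38a5 UMI. Of the cells that missed a single criterion, 2634 lacked Slc38a5, 71 lacked Adamtsl2, 50 had too little Gpx3 and 7 were over the Myh11 or Igfbp2 limit. Against the 2471 of the first kind that were also mesenchymal by the limits above, 2717 genes had 50 CPM or more in either set. In members 2 of these (0.0736%) were at least 2-fold higher and 0 (0%) at least 2-fold lower. The 2 were Slc38a5 itself, which the rule sets, and Saa3, an acute-phase protein gene, at 348 CPM against 144 CPM. Saa3 stood at 2468 CPM in the 32 members with UMIs of other lineages and at 187 CPM in the remaining 759. Members and these neighbours were therefore alike at 2-fold in all other genes at that level.

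Some genes differed with the Slc38a5 count and others did not follow it. Just outside the rule, at 0 Slc38a5 UMIs, the 2634 cells had 67.6 CPM of Megf6, which encodes a protein with many EGF repeats. Members with 1, with 2 and with at least 3 Slc38a5 UMIs had 84.8, 101 and 120 CPM of it. Mfap4, which encodes a microfibril-associated glycoprotein, stood at 1432 CPM outside and at 1853, 2028 and 2366 CPM in the same members. Crispld2 went from 104 CPM outside to 158, 169 and 202 CPM, and Tcf21 from 205 CPM to 251, 263 and 293 CPM. The Wnt-enhancing secreted factor Rspo3 had 27.2 CPM outside and 11.4, 11.3 and 11.6 CPM inside. Mfap5, a second microfibril gene, had 123 CPM outside and 83.6, 83.2 and 59.5 CPM inside. Hsd11b1 had 126 CPM outside and 145, 196 and 154 CPM inside, and Cxcl12 223 CPM outside and 144, 177 and 136 CPM inside. Gsta3 had 45.5 CPM outside and 61.2, 59.0 and 55.6 CPM inside, and Kcnj15 35.5 CPM outside and 53.8, 48.2 and 73.2 CPM inside. Hsd11b1, Cxcl12 and Kcnj15 had no steady order by count within members, and Gsta3 was lowest at the highest count. Median depth was 22740 UMIs in members and 21622 in the mesenchymal cells without Slc38a5, and its part in these steps was not tested.

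Against all 7139 other mesenchymal cells, 2768 genes had at least 50 CPM in either set. Of these, 22 (0.795%) were at least 2-fold higher in members and 30 (1.08%) at least 2-fold lower. The rule used this contrast, so the counts describe the chosen cells. The median log2 ratio over all 2768 genes was -0.02, and most of the transcriptome was shared. The genes with the most UMIs in members, Malat1, Tmsb4x, Eef1a1, Tpt1 and the matrix glycoprotein gene Sparc, had log2 ratios between -0.23 and 0.15.

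The highest ratios outside the rule belonged to genes of several kinds. Crispld2, a gene for a secreted glycoprotein on chr8:119992438-120052793, had 178 CPM in members (173 to 184) and 62.3 CPM in the others, a log2 ratio of 1.52 (1.46 to 1.57). Gsta3, a glutathione S-transferase, had 58.4 CPM against 21.3 CPM (log2 ratio 1.46). Spon2, a secreted matrix protein, had 116 CPM against 43.2 CPM (1.42). The potassium channel gene Kcnj15 had 60.8 CPM against 24.6 CPM, and the lysophosphatidic acid receptor gene Lpar1 76.8 CPM against 31.6 CPM. With every cell at 8000 UMIs, Crispld2 was seen in 66.0% of members, 30.6% of the other mesenchymal cells and 11.7% of leukocytes.

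Tcf21 (chr10:22817281-22820174) had the highest ratio of the transcription factors listed. It had 271 CPM in members and 111 CPM in the other mesenchymal cells, a log2 ratio of 1.29 (1.24 to 1.33). At 8000 UMIs, 80.7% of members had a Tcf21 UMI, against 39.6% of the other mesenchymal cells and 13.8% of leukocytes. Of 26 cardiac and outflow factors listed, 6 reached 50 CPM and Tcf21 alone of them was past 2-fold. Gata6, Prrx1, Meis2, Mef2c and Tbx20 had log2 ratios from -0.44 to 0.19. The other 5 factors were thus within 2-fold.

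Enzymes and receptors made up a further group. Hsd11b1, which regenerates active glucocorticoid inside the cell, had 158 CPM against 65.1 CPM (log2 ratio 1.28). The other glucocorticoid genes listed were level, with Nr3c1, the receptor, at 65.5 CPM against 58.0 CPM and the response gene Fkbp5 at 30.2 CPM against 28.5 CPM. Gucy1a3, a subunit of the nitric oxide receptor guanylate cyclase, had 749 CPM against 336 CPM (1.16). Atp1b1, a subunit of the sodium pump, and Fxyd6, a regulator of it, had log2 ratios of 1.17 and 1.11. The Atp1b1 ratio depended on the cells compared. Against all other ventral cells it was 0.27, where Fxyd6 was at 1.42. With members chosen after thinning Atp1b1 was at 0.99 and Fxyd6 at 1.27. Atp1b1 was also lower once members with UMIs of other lineages were left out, and higher, at 1.26, with free RNA subtracted. Against the other mesenchymal cells, Enpp1, which makes extracellular pyrophosphate, had a log2 ratio of 1.11, and Dpep1, a membrane dipeptidase, had 0.92.

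The lowest ratios were likewise of several kinds of gene. Rspo3 had 11.5 CPM in members and 64.7 CPM in the others, a log2 ratio of -2.49 (-2.69 to -2.31). Without the barcodes marked by Scrublet the ratio was -3.47. Cxcl12, the chemokine that guides coronary and progenitor cells, had 147 CPM against 662 CPM (-2.17), and -2.86 without the marked barcodes. Cd200, an inhibitory surface ligand, had 40.8 CPM against 152 CPM, and the contractile gene Cnn1 17.8 CPM against 66.5 CPM, each a log2 ratio of -1.90. With free RNA subtracted, Cnn1 was at -2.55. Fmod, a tendon and valve proteoglycan, was at -1.89. Sfrp2, a secreted Wnt modulator, was at -1.83, at -2.51 without the 32 members with UMIs of other lineages and at -2.61 without the marked barcodes. Nov, Psat1, Clu, Mfap5, Epha3 and Igfbp3 completed the 12 lowest, between -1.82 and -1.59. With members chosen after thinning, Nov, a matricellular protein gene, was at -2.48.

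**Figure D1:**
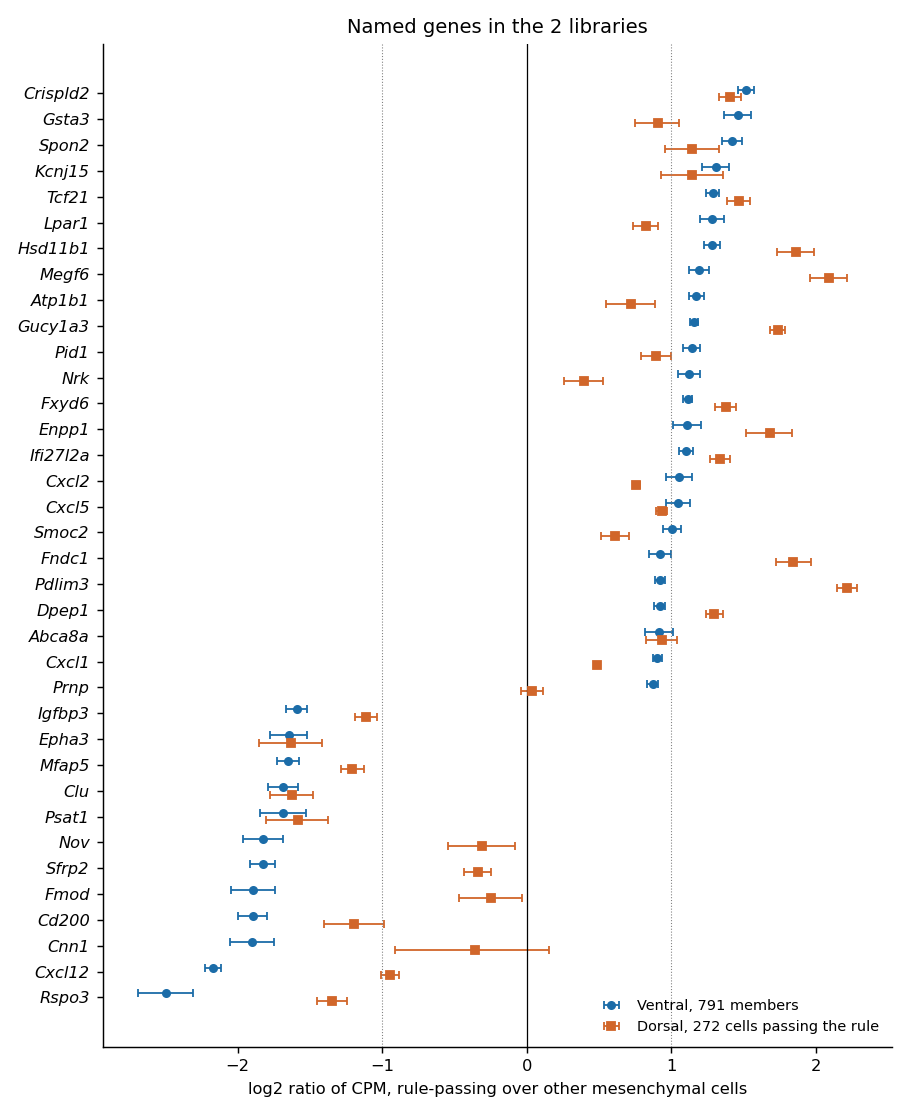
Log2 ratio of CPM (x axis) for the 24 highest and 12 lowest genes (y axis) in cells that pass the rule over other mesenchymal cells, ventral as circles and dorsal as squares, with bars for 95% counting intervals and dotted lines at 2-fold. All 36 dorsal points lie on the ventral side of 0, and the dorsal bars of Prnp and Cnn1 cross it.

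The dorsal library, which the rule did not use, held 272 cells that met the same limits. They were 3.05% of 8926 cells (2.70 to 3.43), against 7.43% in the ventral library. Of 1417 dorsal cells with Gpx3 and Adamtsl2, 19.2% had Slc38a5, against 23.1% of the ventral cells. At 8000 UMIs the share was 10.2% in dorsal and 14.2% in ventral cells with Xist alone, and 8.92% and 14.4% in those with Y-linked UMIs alone. The Gpx3 level of the 272 cells was 801 CPM against 2597 CPM in members, with medians of 18 and 50 UMIs. Adamtsl2 had 158 CPM and 232 CPM, and Slc38a5 78.8 CPM and 135 CPM. All 3 choosing genes were thus lower in the dorsal cells that passed. Scrublet marked 0 dorsal barcodes, so the 637 with the highest scores were taken in place of a call. Those held 11.4% of the dorsal cells that passed and 6.06% of the other dorsal mesenchymal cells. Both Xist and Y-linked UMIs were seen in 17.3% and 10.9% of them. The difference between the libraries was not tested, because there was 1 of each.

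Most genes outside the rule with large ventral ratios kept their direction in the dorsal cells. Against 6678 other dorsal mesenchymal cells, 34 of 2809 genes (1.21%) were at least 2-fold higher and 26 (0.926%) at least 2-fold lower. The 24 genes highest in the ventral contrast were all higher there too, 13 of them at least 2-fold, with a median log2 ratio of 1.14 and a range from 0.04 (Prnp) to 2.22 (Pdlim3). The 12 lowest were all lower, 7 of them at least 2-fold. Tcf21 had 170.5 CPM in the dorsal cells that passed and 61.7 CPM in the others (1.47). Hsd11b1 had 69.5 CPM against 19.1 CPM (1.86), and Megf6 75.6 CPM against 17.8 CPM (2.09). Crispld2 had 193 CPM against 73.1 CPM (1.40). Fmod, Cnn1, Nov and Sfrp2, low in ventral members, had dorsal log2 ratios between -0.36 and -0.25. Of all nameable genes past 2-fold in the ventral contrast, 18 of 18 higher and 27 of 29 lower ones kept the direction, and the exceptions were Mlf1 and the basement membrane gene Nid2.

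Some dorsal differences had no ventral counterpart of that size. The heart T-box factor gene Tbx20 had a log2 ratio of 1.77 in the dorsal cells that passed over the other dorsal cells, which had 8.79 CPM, while ventral members had 68.4 CPM against 60.1 CPM (0.19). Gata4 had 20.2 CPM against 6.45 CPM in the dorsal and 20.5 CPM against 15.9 CPM in the ventral library. Fbln1, a matrix glycoprotein gene, was at 1.58 in the dorsal and 0.62 in the ventral contrast. The troponin gene Tnnt2 was at 101 CPM in the dorsal cells that passed against 42.2 CPM in the others (1.26). Ventral members had 1056 CPM of it, with log2 ratios of 0.31 over other mesenchymal cells and -0.01 over cells lacking only Slc38a5. Its high ventral level was thus not particular to members. The other cardiomyocyte genes stayed low in members, with Myh6 at 3.53 CPM and Ttn at 4.66 CPM.

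Tcf21, Hsd11b1 and Cxcl12 had the same order in both libraries when mesenchymal cells were sorted by how many of the 3 minimums they met. In ventral cells with 0, 1, 2 and 3 met, Tcf21 stood at 35.1, 63.1, 214 and 271 CPM, and in dorsal cells at 37.1, 44.3, 138 and 170.5 CPM. Hsd11b1 went from 17.4 to 158 CPM in the ventral and from 6.57 to 69.5 CPM in the dorsal cells. Cxcl12 went the other way, from 1029 to 147 CPM and from 611 to 266 CPM. The largest step for Tcf21 and Hsd11b1 lay between 1 and 2 minimums, and 2471 of the 2575 ventral cells that met 2 had Gpx3 and Adamtsl2. Igfbp3, Mfap5 and the ventral Rspo3 did not follow this order and were highest in cells that met 1, at 499, 376 and 112 CPM in the ventral cells. Other genes differed between the libraries: Pdgfra went from 37.3 CPM at 0 to 67.1 CPM at 3 in the ventral and from 138 to 118 CPM in the dorsal cells, and Acta2 from 6196 to 3379 CPM and from 508 to 541 CPM.

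**Figure D2:**
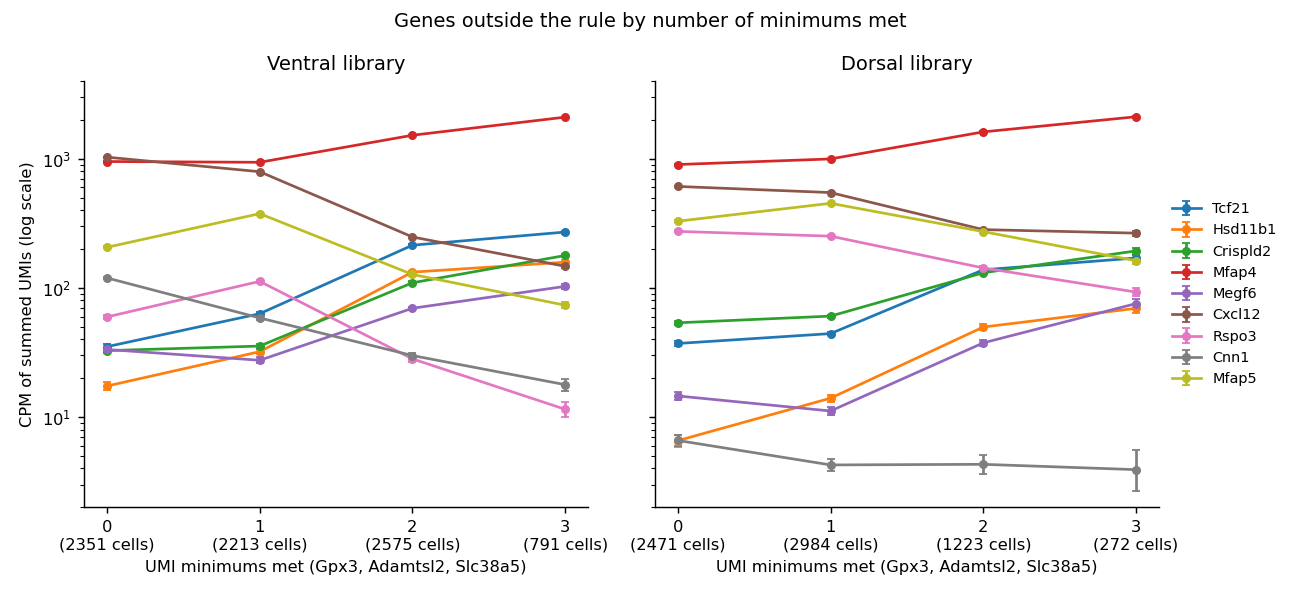
CPM of 9 genes outside the rule on a log scale (y axis) in mesenchymal cells that met 0, 1, 2 or 3 of the UMI minimums (x axis, with the number of cells), with bars for 95% Poisson intervals. Tcf21, Hsd11b1 and Crispld2 are higher at 3 than at 0 in both libraries, and Cxcl12 is lower.

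The size of the contrast depended on the cells set against the members. Against 2351 ventral mesenchymal cells that met none of the 3 minimums, 91 of 2819 genes (3.23%) were at least 2-fold higher and 72 (2.55%) at least 2-fold lower. All 24 of the highest genes were past 2-fold there, with Gsta3 the furthest at 58.4 CPM against 4.63 CPM (log2 ratio 3.66). Against the cells that lacked only Slc38a5, none of the 24 was past 2-fold, and Atp1b1 was highest at 0.82. Sfrp2 lay on the other side there, at 55.1 CPM against 45.2 CPM (0.29).

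A further comparison set was the Fmod Scx cells. These 312 cells had at least 3 Fmod UMIs and 1 Scx UMI, met the Myh11 and Igfbp2 limits and passed no other set's limits. Compared with them, 90 of 2844 genes (3.16%) were at least 2-fold higher in members and 63 (2.22%) at least 2-fold lower. Dpep1 had 396 CPM against 31.6 CPM and Cxcl5 74.9 CPM in members, both a log2 ratio of 3.64. Smoc2, a matricellular calcium-binding protein gene, had 132 CPM against 16.6 CPM (2.99). Fmod and the tendon factor Scx chose those cells, so their low values in members are no finding. Lmo1, a LIM-only cofactor gene (-4.43), and Cpxm2, a carboxypeptidase-like protein gene (-4.17), were the lowest of the others. Igfbp3, Epha3, Mfap5 and Cxcl12 were not low against these cells, with log2 ratios between 0.07 and 0.98.

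Cd200 Cxcl12 cells were the more numerous set, 3511 cells with at least 3 Cxcl12 UMIs and 1 Cd200 UMI under the same conditions. Here 62 of 2836 genes (2.19%) were at least 2-fold higher in members and 66 (2.33%) at least 2-fold lower. Gsta3 (log2 ratio 2.70), Hsd11b1 (2.57), Spon2 (2.32), Crispld2 (2.26) and Tcf21 (2.25) led the higher genes, and Rspo3 (-2.91) and Cd34 (-2.58) the lower ones that had not chosen those cells. The sets were not exclusive of members by their own limits: 118 members also met the Cd200 Cxcl12 limits and 8 the Fmod Scx limits. They were kept as members and left out of the other sets.

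The other selenoprotein genes were within 2-fold. Of 21 on the list, 13 reached 50 CPM and 1 was past 2-fold, Gpx3, whose level the rule sets, and their median log2 ratio was -0.12 beside -0.02 for all genes. Gpx4, which protects membrane lipids, had 1036 CPM against 1047 CPM. Gpx1, the cytosolic form, had 439 CPM against 478 CPM, and Selenow had 1008 CPM against 990 CPM. Selenop, the secreted selenium carrier, had 205 CPM against 133 CPM (0.63) and in the dorsal cells 299 CPM against 177 CPM (0.76). Of 24 glutathione and antioxidant genes, 16 reached 50 CPM, and 0 of them were past 2-fold either way. Gstm1 had the highest of these ratios, 186 CPM against 111 CPM (0.75).

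Adamtsl2 belongs with the proteins that sit on fibrillin microfibrils. Of 20 genes on that list, 10 reached 50 CPM, with a median log2 ratio of 0.34, 1 past 2-fold higher (Adamtsl2, by the rule) and 1 lower (Mfap5, at 73.4 CPM against 231 CPM). Mfap4 had 2101 CPM against 1161 CPM (0.86) and 2116 CPM against 1097 CPM in the dorsal cells (0.95). Ltbp4, which tethers latent TGF-beta, had 80.7 CPM against 50.2 CPM (0.69). Fbn1, the main fibrillin, was level at 360 CPM against 346 CPM, and Emilin1 stood at 159 CPM against 119 CPM. Microfibril genes thus did not share a direction, with Mfap4 and Mfap5 on opposite sides in both libraries.

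Genes of the elastic fibre, which forms on those microfibrils, were mostly level or lower. Elastin itself (Eln) had 4619 CPM in members and 8500 CPM in the others (-0.88), and 2601 CPM against 2897 CPM in the dorsal cells (-0.16). Fbln5, which links elastin to cells, had 273 CPM against 600 CPM (-1.14), and the crosslinking enzyme gene Lox 710 CPM against 1102 CPM (-0.63). Fbln1 had 150 CPM against 97.9 CPM. Of 10 genes, 8 reached 50 CPM, 0 were past 2-fold higher and 1, Fbln5, lower. Eln in the cells with Gpx3 and Adamtsl2 but no Slc38a5 was 4734 CPM, so it did not separate members from their neighbours.

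The other amino acid transporters at 50 CPM were within 2-fold. Of 21 genes 4 reached that level, and the 1 past 2-fold was Slc38a5, whose level the rule sets. Slc1a5, another glutamine carrier, had 74.2 CPM against 69.2 CPM, and the relative Slc38a2 57.5 CPM against 70.1 CPM. On the synthesis side 7 of 13 genes reached 50 CPM, with a median of -0.32. Psat1, an enzyme of serine synthesis, was past 2-fold lower at 16.1 CPM against 51.9 CPM (-1.69), with -1.59 in the dorsal cells. Phgdh, the first enzyme of that pathway, had 212 CPM against 265 CPM (-0.32), and Asns, which makes asparagine, 170 CPM against 227 CPM (-0.42).

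Of 20 genes listed for resident and epicardium-derived cardiac fibroblasts, 14 reached 50 CPM, with a median log2 ratio of 0.37, 3 past 2-fold higher (Tcf21, Hsd11b1 and Smoc2) and 0 lower, beside 0.795% and 1.08% of all genes at that level and a median of -0.02. Dpep1, Abca8a and Gfpt2 had 0.92, 0.92 and 0.81. Mgp, the calcification inhibitor, went against them at 4617 CPM against 9054 CPM (-0.97). The list summed to 6975 CPM in members and 10932 CPM in the others. Against the cells that lacked only Slc38a5 its median was 0.15, with 14 genes at 50 CPM and 0 past 2-fold either way. The higher values were thus largely shared by those cells. In the dorsal cells 13 of the list reached 50 CPM, with 3 past 2-fold higher, beside 1.21% of all genes, and a median of 0.30. Wt1, an epicardial factor, stayed low at 14.2 CPM in members, against 5.51 CPM. Collagens were level, with 14 of 19 at 50 CPM, 0 past 2-fold and a median of -0.05. Among them Col3a1 had 3131 CPM against 2417 CPM (0.37), Col1a1 3145 CPM against 3215 CPM (-0.03) and Col12a1 57.3 CPM against 90.1 CPM (-0.65).

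**Figure D3:**
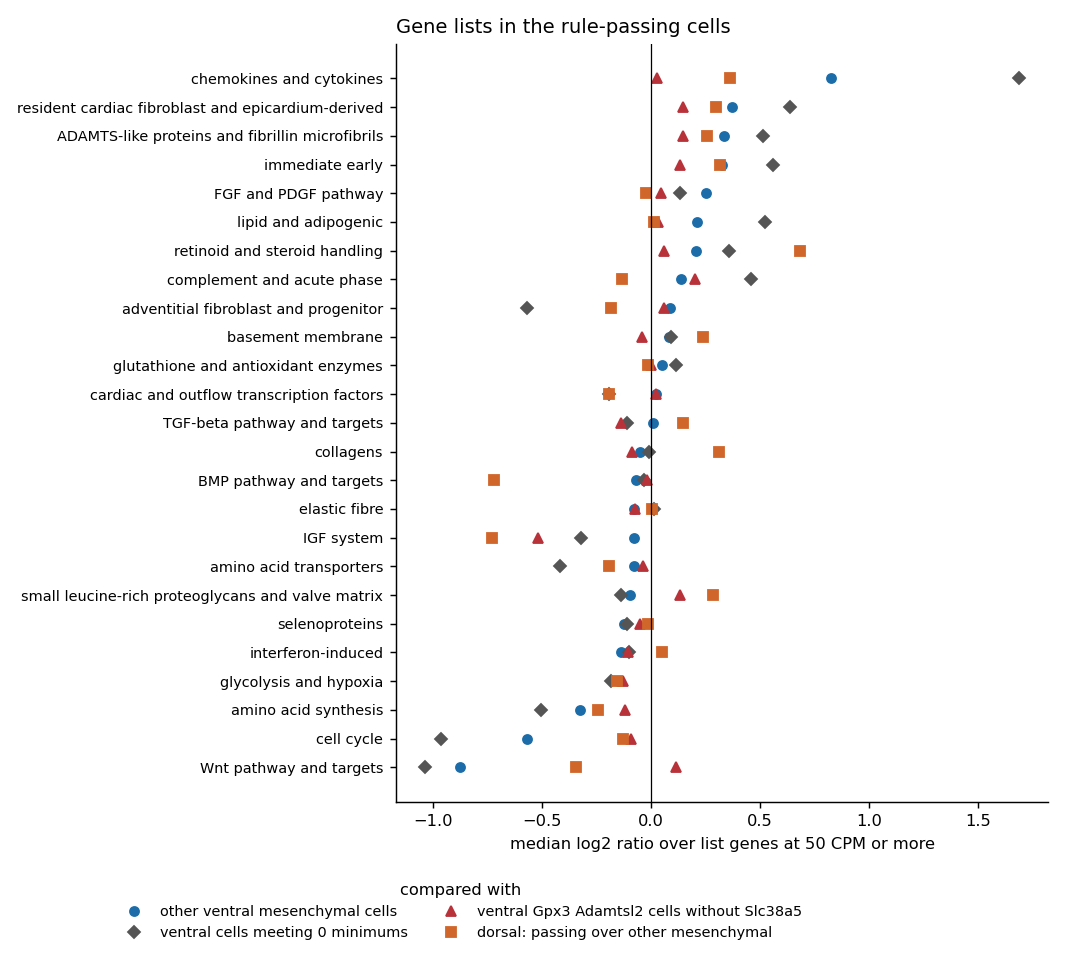
Median log2 ratio over the genes of each list at 50 CPM or more (x axis) for pathway lists with at least 3 such genes (y axis), in cells that pass the rule over the sets named in the key. Chemokines and cytokines lie highest (0.83 against other ventral mesenchymal cells) and Wnt genes lowest (-0.87), and the triangles, for neighbours without Slc38a5, lie near 0 for most lists.

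The signalling lists had few genes past 2-fold, and over all genes at 50 CPM 0.795% were higher and 1.08% lower. Of 19 Wnt genes 4 reached 50 CPM, with Rspo3 and Sfrp2 past 2-fold lower and a median of -0.87. Of 16 TGF-beta genes, 11 reached 50 CPM and 0 were past 2-fold. Tgfb2 had 132 CPM against 233 CPM (-0.82), and Tgfb3 80.0 CPM against 51.5 CPM (0.63). BMP genes (4 of 16 at 50 CPM) and FGF and PDGF genes (5 of 18) had 0 past 2-fold, with Pdgfa at 95.9 CPM against 176 CPM and its receptor gene Pdgfra at 67.1 CPM against 47.6 CPM. In the IGF system Igfbp3 (-1.59) and Igfbp4 (-1.08) were past 2-fold lower, and Igf1r was level at 102 CPM against 92.8 CPM. Hes1, the Notch target, had 58.2 CPM against 75.9 CPM.

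Among pathway lists with at least 3 genes at 50 CPM, the chemokine list had the highest median, 0.83 over 7 of 17 genes, beside -0.02 over all genes. Cxcl5 (74.9 CPM against 36.2 CPM) and Cxcl2 (64.9 CPM against 31.3 CPM), both ligands that draw neutrophils, were past 2-fold higher, each a log2 ratio of 1.05, and Cxcl12 was the 1 lower, where 0.795% and 1.08% of all genes were. An alternative put the ventral cell cluster with the largest share of members, 242 of 791, in place of the rule. Members were 26.4% of its 915 cells, and members in other clusters could then fall among the comparison cells. With that cluster Cxcl2 was at 0.03 and Cxcl5 at -0.14. In the 130 members of another cluster, numbered 3, Cxcl5 stood at 307 CPM and Cxcl2 at 254 CPM. Members of the remaining clusters with at least 50 members had 15.5 to 44.3 CPM of Cxcl5 and 19.2 to 29.0 CPM of Cxcl2. Against the cells that lacked only Slc38a5 the list median was 0.03, with 7 genes at 50 CPM and 0 past 2-fold. Ccl7 had 679 CPM against 383 CPM and Ccl2, which draws monocytes, 1744 CPM against 1134 CPM. In the dorsal library these genes were higher in all mesenchymal cells, with Cxcl5 at 715 CPM against 375 CPM and Cxcl2 at 1552 CPM against 918 CPM. Immediate early genes, which dissociation also raises, had a median of 0.33 over 10 of 12 genes and 0 past 2-fold, with Fos at 160 CPM against 102 CPM and Jun at 93.2 CPM against 58.5 CPM. Their part in other ratios was not tested.

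Cell cycle RNA was lower in members. The 25 cell cycle genes summed to 484 CPM against 758 CPM, and 4.05% of members had more than 0.2% of their UMIs in them, against 8.01% of the other mesenchymal cells. Top2a had 20.7 CPM against 42.2 CPM and Mki67 13.9 CPM against 27.8 CPM. The cells without Slc38a5 were nearly the same as members, with 4.61% above that limit. In the dorsal library the shares were 1.84% and 2.34%. Leaving the cells above the limit out left 28 of the 36 named genes past 2-fold, against 30 with them.

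Female cells were more frequent among members than among other mesenchymal cells of the pool. Among members with UMIs of Xist, which is made from the inactive X chromosome, or of Y-linked genes, but not both, 465 had Xist and 217 had Y-linked UMIs. Xist cells were thus 68.2% (64.5 to 71.7), against 62.3% (61.1 to 63.5) of the other mesenchymal cells and 66.2% of the cells without Slc38a5. Slc38a5 is X-linked (chrX:8271133-8280179). In cells with Gpx3 and Adamtsl2 it was seen in 23.5% of Xist cells (21.7 to 25.5) and 21.7% of Y cells (19.2 to 24.4). At 8000 UMIs the shares were 14.2% and 14.4%, so the share with Slc38a5 was alike in both sexes within counting error.

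Of 2780 genes at 50 CPM or more in Xist cells, 24 (0.863%) were at least 2-fold higher and 31 (1.12%) lower in members, and of 2785 in Y cells 23 (0.826%) and 42 (1.51%). All 36 named genes had the same direction in Xist cells and in Y cells. They were chosen from the contrast that pooled these same cells, so a shared direction was favoured in advance and is only a description. For the 24 highest the median log2 ratio was 1.12 in Xist cells and 1.32 in Y cells, and for the 12 lowest -1.92 and -2.14. Crispld2 was at 1.47 and 1.80, and Tcf21 at 1.27 and 1.53. Cxcl5 differed most among the higher genes, at 1.32 in Xist and 0.20 in Y cells. The differences between the sexes were not tested.

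**Figure D4:**
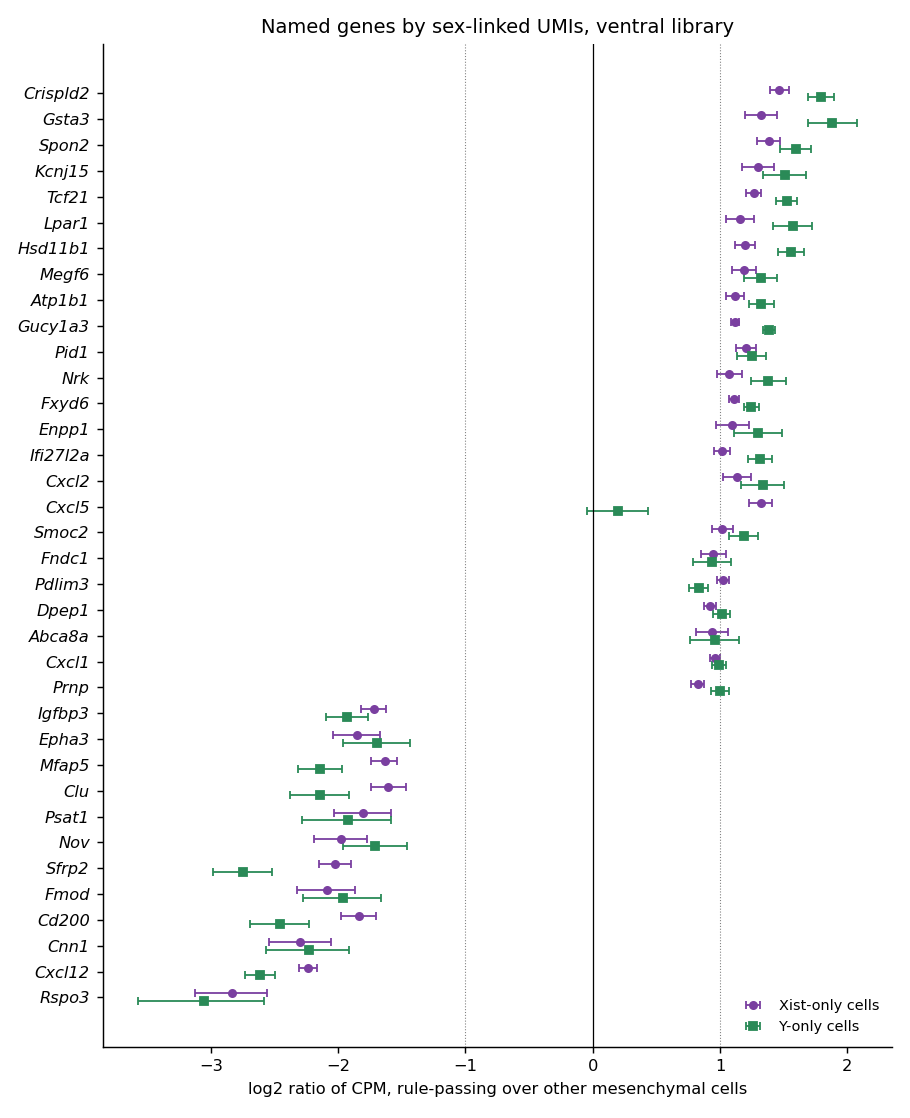
Log2 ratio of CPM (x axis) for the same 36 genes (y axis) in ventral members over other ventral mesenchymal cells, computed from Xist-only cells (circles) and Y-only cells (squares), with bars for 95% counting intervals. Every gene lies on the same side of 0 in both, and the points of Cxcl5 (1.32 and 0.20) are far apart. The genes were chosen from the contrast that pooled these cells.

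Members were not 1 compact cluster. When all ventral cells were clustered, 678 of 791 members (85.7%) fell in 4 of 21 clusters, numbered 11 (242 members), 7 (225), 3 (130) and 6 (81), and a further 33 fell in cluster 12, led by cycling genes, 33 in cluster 1, led by Cxcl12, Angpt2 and Cd200, and 21 in cluster 15, led by Msln, Saa3 and Upk1b. In each of the 4, between 82.0% and 85.3% of all cells had Gpx3 and Adamtsl2, and between 20.7% and 31.5% of those had Slc38a5. The clusters were made from the same counts, so the values that follow describe them and test nothing. None of the 4 was given a cell type name, and the genes given for them were chosen after their values were seen.

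The 4 groups of members shared the choosing genes but differed in others. Cluster 7 members had 4063 CPM of Gpx3, near the 3971 CPM of cluster 3, while clusters 6 and 11 had 1881 and 2136 CPM. They had 351 CPM of Adamtsl2, where the other groups had from 204 to 249 CPM. Their Megf6 stood at 205 CPM, where the other groups had from 53.4 to 93.1 CPM. Cluster 11 members had 98.6 CPM of Gsta3 against 20.7 to 72.6 CPM in the others, and 244 CPM of Crispld2 against 113 to 196 CPM. Lrat, the enzyme that stores vitamin A as esters, had 18.1 CPM in cluster 11 members against 4.69 to 14.2 CPM. Their Chchd10, a mitochondrial protein gene, stood at 158 CPM against 19.6 to 34.8 CPM in the others. Cluster 3 members had the highest levels of 3 chemokines: Cxcl1 stood at 1541 CPM against 266 to 461 CPM, Ccl2 at 4137 CPM against 576 to 1781 CPM, and Cxcl5 at 307 CPM against 15.5 to 44.3 CPM. Another chemokine, Ccl20, was highest in cluster 6, at 57.9 CPM against 18.9 CPM in cluster 3. The adhesion gene Sele stood at 28.0 CPM in cluster 3 and at 0 to 0.920 CPM in the other groups. Cluster 6 members had 587 CPM of the stretch-responsive gene Ankrd1, 248 CPM of Spon2 and 196 CPM of Tubb3, all above the other groups.

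Saa3 varied most between members. At 8000 UMIs it was at 0 in 78.5% of them and reached 221 UMIs in 1 cell. The 8 members with the most Saa3 held 58.5% of its 7099 UMIs. Cxcl12, Fgl2, Ctla2a, Lcn2, Apoe, Ankrd1, Fos, Cxcl1 and S100a4 followed, each at 0 in between 42.0% and 65.5% of members. Cxcl1 was the most widely spread of these, with 123 members at 10 UMIs or more and 25 UMIs at the 95th percentile. Over 1120 genes with a mean of at least 1 UMI the median excess of variance over counting noise, as a share of the squared mean, was 0.0721, against 40.1 for Saa3 and 3.22 for Cxcl1. Between cells, Gpx3 and Adamtsl2 had a Pearson r of 0.25 and Gpx3 and Cxcl12 of -0.27 over 791 members. No pair of these genes was further from 0. The values are from log counts after thinning to 8000 UMIs, so depth was equal. Members had been chosen by minimums of Gpx3 and Adamtsl2 and share free RNA, so such values are weak.

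**Figure D5:**
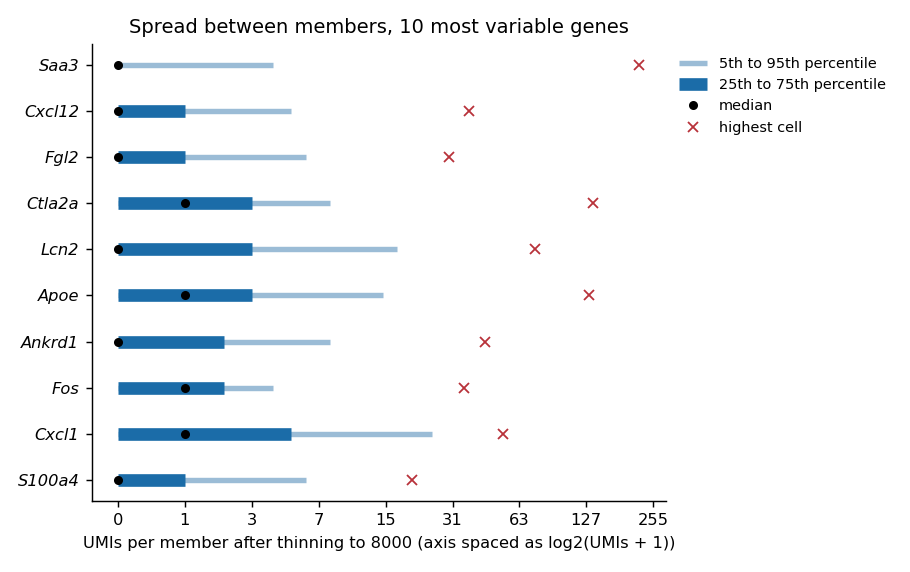
UMIs per member after thinning every cell to 8000 UMIs (x axis, spaced as the log2 of UMIs plus 1) for the 10 most variable genes (y axis), with the median, percentile bars and the highest of 791 members. Saa3 has its 95th percentile at 4 UMIs and its highest cell at 221.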

How the data were processed

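The authors deposited UMI counts per gene and barcode for 1 dorsal and 1 ventral library, made with Cell Ranger 3.0.2 against mm10, per the submitters' processing notes. Which annotation release they used is not given in the sources used here. Both deposited matrices were unfiltered, with 28692 genes and 6794880 barcodes each, and cells were barcodes with at least 8000 UMIs and at most 20% mitochondrial UMIs. Gene positions are from GENCODE M21, which held 28416 of the 28692 gene IDs.

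UMIs were summed over each set of cells and divided by the set's total to give CPM, with exact Poisson intervals. Ratios have exact conditional binomial intervals and shares Clopper-Pearson intervals, all at 95%. Ratios were counted for genes at 50 CPM or more in either set, with 2-fold as a size and not a call. Counts were from 3' ends and not scaled by transcript length, so an order of genes by CPM is one of UMIs and not of molecules per length. Thinning drew 8000 UMIs from each cell without replacement. The ratio code was tested on simulated data.

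Doublets were kept in the main values and scored with Scrublet in scanpy 1.11.5, which marked 768 ventral barcodes (7.21%). It marked 0 dorsal barcodes and had therefore not worked there, so the 637 with the highest scores were taken. Ventral cells were clustered by the Leiden method (resolution 1, 2000 variable genes, 30 components, 15 neighbours). Python 3.11.15, numpy 2.4.6, scipy 1.17.1, pandas 2.3.3 and matplotlib 3.10.9 were used, and edgeR 4.0.16 in R 4.3.3 for TMM factors alone.

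The members, the 36 gene lists and the comparisons were chosen with earlier results of these data known. The genes named were the 24 highest and 12 lowest ratios against other mesenchymal cells, the 8 highest and 4 lowest against each of the Fmod Scx and Cd200 Cxcl12 cells, the rule's 5 genes, members of the lists, the 10 most variable genes and the genes with the most UMIs. Genes of the rule, mitochondrial and ribosomal genes and provisional names were left out of the ranks. Alternatives covered the cell limits, the rule's minimums, thinning, doublets, free RNA, scaling, the CPM minimum and the comparison cells. Those by sex, by number of minimums met, without Slc38a5, without other lineages and at 0.2% cell cycle UMIs were added after seeing the data.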

Additional observations from a re-analysis of the deposited data

Results flagged for a closer look

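Hp, which encodes the haemoglobin-binding plasma protein haptoglobin, had opposite directions by sex. Its log2 ratio in members over other mesenchymal cells was 0.996 in cells with Xist alone and -2.99 in cells with Y-linked UMIs alone. The 8 members with the most Hp held 80.8% of its 1039 UMIs, and 70 members had any. The difference was not tested.

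Saa3 and Lum had opposite directions by library. The log2 ratio of Saa3 in cells that passed the rule over other mesenchymal cells was 0.75 in the ventral and -0.83 in the dorsal library, where it had 2435 CPM against 4315 CPM. That of Lum, which encodes a collagen-binding proteoglycan, was -0.66 in the ventral and 0.52 in the dorsal library, at 507 CPM against 353 CPM there. With 1 library per domain neither difference was tested.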

How the results depend on the processing

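No paired analysis was possible because each domain had 1 library and no result came from a test. With Adamtsl2 and Slc38a5 minimums of 2, members numbered 444 and dorsal cells that passed 100, and after thinning 365 and 76. Against other mesenchymal cells, the genes 2-fold higher and lower numbered 42 and 64 at a 20 CPM minimum, 1517 and 3775 with no minimum, and 35 and 48 against all other ventral cells. They numbered 2 and 0 against cells without Slc38a5 and 91 and 72 against cells that met none of the minimums. Cluster 11, with 242 of 791 members among its 915 cells, was also put in place of the rule. The genes lower then numbered 82, Cxcl5 reversed to -0.14 and 22 of the 36 named genes were past 2-fold, against 30 by the rule. With cluster 11, Spon2 was at 0.53, Hsd11b1 at 0.54, Pid1 at 0.51 and Cxcl2 at 0.03. Gsta3 was at 2.78, Sfrp2 at -3.51, Rspo3 at -3.88, Cxcl12 at -3.49 and Cnn1 at -3.40. Sfrp2 reversed to 0.29 against cells without Slc38a5. Against Fmod Scx cells the counts were 169 and 138 at 20 CPM and 2782 and 2049 with no minimum. Against Cd200 Cxcl12 cells they were 108 and 144, then 1495 and 3885. The rise with a lower CPM minimum comes with more genes counted, and the cause of the other shifts was not tested. The 5% cell cycle limit left out 0 cells of either set. Low counts limit Slc38a5, of which 305 members had 1 UMI.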
